A study of Mus musculus with 6 samples.

Results

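Transcripts of 10 genes of prostaglandin release, synthesis, transport, breakdown and reception were followed, taken as every row of the deposited gene table that carries one of 10 given names. They are 10 of the 52636 genes in the table, and 10 of 10 passed the filter on low values that left 18241 genes for testing. Prostaglandin E2 is made in steps. Pla2g4a, cytosolic phospholipase A2, frees arachidonic acid from membranes, the cyclooxygenases Ptgs1 and Ptgs2 turn it into an unstable intermediate, and the prostaglandin E synthases Ptges, Ptges2 and Ptges3 turn that intermediate into prostaglandin E2. Slco2a1 carries prostaglandins into cells, where the dehydrogenase Hpgd inactivates them, and Ptger2 and Ptger4 encode the prostaglandin E2 receptors that raise cyclic AMP. In squamous epithelium these products are known for their roles in inflammation, wound repair and tumour growth. Ibuprofen blocks the activity of both cyclooxygenase proteins; transcripts, not proteins or prostaglandins, were measured here.

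The cells came from Krt5CreER:RosaSmoM2 mice, in which tamoxifen lets Cre recombinase, driven by the Krt5 promoter, release expression of SmoM2, a constitutively active Smoothened that signals in the Hedgehog pathway. Esophagi were taken 5 days after the tamoxifen injection, and the cells were grown as organoids in matrigel with KSFM medium for 13 days, so organoids of every group carry the same alleles and had the same induction. Organoids of the first group received TGFb1 at 1 ng/ml, BMP4 at 20 ng/ml and ibuprofen at 500 µM, those of the second TGFb1 and BMP4 at the same doses, and those of the third the TGFb receptor inhibitor A8301 at 500 nM. Treatment lasted 72 h and was renewed every 24 h. Each group had 2 bulk RNA-seq libraries of 6413873 to 7730582 reads, as recovered from the deposited values. Separate cultures or animals are not stated for the replicates, so p-values measure only the spread between these libraries, which may be technical. Whether A8301 remained in the ligand groups is not stated either. With no untreated group, what TGFb1, BMP4 and the missing inhibitor each contributed cannot be told apart. In bulk RNA, fewer cells of a type and less RNA per cell cannot be told apart.

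All 10 keratinocyte markers examined were found at 1 CPM (reads scaled to a library total of 1000000) or more, and their summed level was 13900 to 14900 CPM with TGFb1+BMP4+ibuprofen, 16500 to 20200 CPM with TGFb1+BMP4 and 16900 to 19400 CPM with the TGFb inhibitor. Within that sum 4 markers rose and 5 fell with TGFb1+BMP4 over the inhibitor, and 1 rose and 3 fell when ibuprofen was added. In these marker counts, rose and fell mean a limma adjusted p under 0.05. Of all genes tested, 40.3% reached it in the first of these comparisons and 19.8% in the second. Krt4, a keratin of differentiating layers, had at most 2.90 CPM with TGFb1+BMP4+ibuprofen, 1145 and 311 CPM with TGFb1+BMP4 and 3298 and 2158 CPM with the inhibitor, while Krt14 of basal cells had 7735 and 8056 CPM with TGFb1+BMP4+ibuprofen, 9097 and 7501 CPM with TGFb1+BMP4 and 2691 and 2553 CPM with the inhibitor. Besides Krt14, the markers that rose with TGFb1+BMP4 over the inhibitor were Krt5, Itga6 and Epcam. Besides Krt4, those that fell were Krt13, Krt15, Trp63 and Sox2. Mean levels of Krt15 were 4.92 CPM with TGFb1+BMP4+ibuprofen, 26.1 CPM with TGFb1+BMP4 and 150 CPM with the inhibitor. For Trp63 they were 357, 429 and 649 CPM in the same order. The 10 fibroblast markers summed to 1550 to 1960 CPM with TGFb1+BMP4+ibuprofen, 2080 to 3260 CPM with TGFb1+BMP4 and 214 to 276 CPM with the inhibitor. Of these 10, 9 rose and 1 fell with TGFb1+BMP4 over the inhibitor, and 1 rose and 5 fell when ibuprofen was added. The 8 endothelial markers summed to 19.1 to 19.7 CPM with TGFb1+BMP4+ibuprofen, 18.6 to 31.0 CPM with TGFb1+BMP4 and 7.95 to 10.4 CPM with the inhibitor. Of these sums, Eng alone had 9.85 and 12.5, 11.6 and 19.1, and 2.5 and 1.6 CPM in the same order of groups. Cdh5, Kdr, Tek, Emcn and Vwf stayed at or below 1.2 CPM in each library. Esam was highest with the inhibitor, at 2.5 and 2.2 CPM. The 6 muscle markers summed to 883 to 1150 CPM with TGFb1+BMP4+ibuprofen, 1040 to 1370 CPM with TGFb1+BMP4 and 518 to 589 CPM with the inhibitor. Ttn alone had 569 and 735, 707 and 926, and 370 and 379 CPM in the same order, while Myh11 had at most 0.45 CPM. Of the 5 muscle markers tested, 3 rose with the ligands and 1 fell when ibuprofen was added. Of 6 mast cell markers, Kit had 0.60 and 0.35 CPM with TGFb1+BMP4+ibuprofen, 9.74 and 15.4 CPM with TGFb1+BMP4 and 0.15 and 0.15 CPM with the inhibitor, while Mcpt4, Tpsb2 and Fcer1a had no read in any library. The 10 immune cell markers summed to 51.2 to 73.9 CPM with TGFb1+BMP4+ibuprofen, 38.6 to 61.4 CPM with TGFb1+BMP4 and 61.1 to 70.4 CPM with the inhibitor. Among them Ptprc stayed at or below 0.5 CPM in each library, whereas Cd68 had 18.8 and 15.0 CPM with TGFb1+BMP4+ibuprofen, 7.50 and 8.29 CPM with TGFb1+BMP4 and 49.1 and 50.8 CPM with the inhibitor. Of the 5 immune cell markers tested, 2 rose and 1 fell with the ligands, and 1 rose and 1 fell when ibuprofen was added. Itgam, with 4.3 and 3.35 CPM with TGFb1+BMP4, passed the filter on low values only through that group. Its rise with the ligands and its fall with ibuprofen add no support to these counts. The 6 tuft cell markers summed to 91.4 to 111 CPM with TGFb1+BMP4+ibuprofen, 63.0 to 105 CPM with TGFb1+BMP4 and 66.1 to 78.4 CPM with the inhibitor, with Gfi1b listed at 0. Of the 4 tuft cell markers tested, 1 rose and 2 fell with the ligands, and 1 rose when ibuprofen was added. These levels move with the treatments, and their part in the changes of the prostaglandin genes was not tested.

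The stretches of genome before the starts of the 4 genes that rose most when ibuprofen was added, by at least 1 on the log2 scale, are printed here. That rise was the rule that picked these genes, and shared regulation was not tested. They are the 250 bases before the RefSeq start of each gene on GRCm38.p6, read 5′ to 3′ on the gene's own strand, and capitals mark the matches to the motifs searched. For Ptges the stretch is chr2:30903298-30903547 on the minus strand, for Ptgs2 chr1:150099781-150100030 on the plus strand, for Slco2a1 chr9:103008237-103008486 on the plus strand and for Pla2g4a chr1:149961291-149961540 on the minus strand, before the first of its 2 listed starts.
Ptges: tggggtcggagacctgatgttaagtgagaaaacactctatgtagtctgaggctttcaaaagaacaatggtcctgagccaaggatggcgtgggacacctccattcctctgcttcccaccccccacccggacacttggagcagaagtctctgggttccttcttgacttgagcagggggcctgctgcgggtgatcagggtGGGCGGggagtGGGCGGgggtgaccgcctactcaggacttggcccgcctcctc
Ptgs2: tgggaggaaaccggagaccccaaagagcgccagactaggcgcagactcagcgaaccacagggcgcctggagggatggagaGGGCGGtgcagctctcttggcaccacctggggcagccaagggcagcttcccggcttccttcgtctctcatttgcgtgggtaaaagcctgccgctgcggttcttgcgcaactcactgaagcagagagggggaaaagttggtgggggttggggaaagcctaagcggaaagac
Slco2a1: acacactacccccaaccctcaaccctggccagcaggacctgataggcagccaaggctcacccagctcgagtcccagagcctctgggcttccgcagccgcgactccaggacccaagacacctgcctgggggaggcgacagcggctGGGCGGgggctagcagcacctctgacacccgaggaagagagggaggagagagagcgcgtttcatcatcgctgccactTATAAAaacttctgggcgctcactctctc
Pla2g4a: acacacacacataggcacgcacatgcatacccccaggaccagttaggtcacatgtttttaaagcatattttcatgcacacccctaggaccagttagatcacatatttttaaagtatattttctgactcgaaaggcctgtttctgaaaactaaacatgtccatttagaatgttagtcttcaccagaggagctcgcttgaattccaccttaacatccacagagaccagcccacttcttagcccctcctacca
Just after its start, at chr1:150100033-150100062, Ptgs2 also holds an E-box, CACGTG, shown in capitals.
Ptgs2 start: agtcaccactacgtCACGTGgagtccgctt

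Motifs were searched on both strands from 250 bases before to 50 bases after the start, in 11 windows of the 10 genes and in all 32851 windows of that length in the RefSeq table. The GC box GGGCGG, added after the sequences had been seen, was found before Ptges from bases -53 and -42, and once each before Ptgs2 and Slco2a1. It was present in 6 of the 11 windows and in 35.7% of all windows. A TATA box, TATAAA, lay at base -29 of Slco2a1 and was present in 3 of the 11 windows and in 13.6% of all windows. The E-box was found in Ptgs2 from base 17 and in Ptges2, and in 7.15% of all windows. The half-site TGACG of the cyclic AMP element was found in Ptgs2, where it overlaps the E-box, and in Ptges3, and in 20.8% of all windows. None of the 11 windows held the full cyclic AMP element TGACGTCA (1.79% of all windows), the AP-1 site TGANTCA (7.81%), the GLI site TGGGTGGTC (0.253%), the SMAD sequences GTCTAGAC (0.213%) and CAGACA (21.0%), the EGR1 site GCGGGGGCG (2.91%) or the PPRE (0.0396%). A match describes these letters only.

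Each called change of these genes with TGFb1+BMP4 over the inhibitor was a fall, and 5 of the 6 called changes with ibuprofen added were rises. In organoids with TGFb1+BMP4, 0 of the 10 genes rose and 4 fell relative to the inhibitor, Ptges, Ptgs2, Ptges3 and Slco2a1. When ibuprofen was added to the ligands, 5 of 10 rose, Ptges, Ptgs2, Slco2a1, Pla2g4a and Ptges3, and 1 fell, Ptger4. Between TGFb1+BMP4+ibuprofen and the inhibitor, 3 genes were higher, Pla2g4a, Ptgs2 and Slco2a1, and 4 were lower, Hpgd, Ptger2, Ptger4 and Ptges3. Ptger2 passed the filter only through the inhibitor group, where it is highest, so its call adds no support to that count. Changes are log2 fold changes in limma, of CPM scaled by trimmed-mean factors plus 1, and a gene was called when its p-value, adjusted over all genes tested, was under 0.05.

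Many genes changed in these organoids, and the counts stand against that background. With TGFb1+BMP4 over the inhibitor 40.3% of all genes tested were called, 20.4% higher and 19.9% lower, against 4 of the 10 genes. The share of the prostaglandin genes called is therefore near that of all genes, with all 4 on the lower side. The median change of the 10 genes was -0.51, against 0.00 over all genes tested. With ibuprofen added to the ligands 19.8% of all genes were called, 10.7% higher and 9.02% lower, against 6 of the 10, with a median change of 0.44 against -0.01. Between TGFb1+BMP4+ibuprofen and the inhibitor 40.7% were called, 20.8% higher and 19.9% lower, against 7 of the 10, Ptger2 included, with a median change of -0.07 against -0.02. The comparisons share libraries, TGFb1+BMP4 being the lower side of one step and the upper side of the other, so opposite signs in the first and second comparison are not independent of each other.

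**Figure D1:**
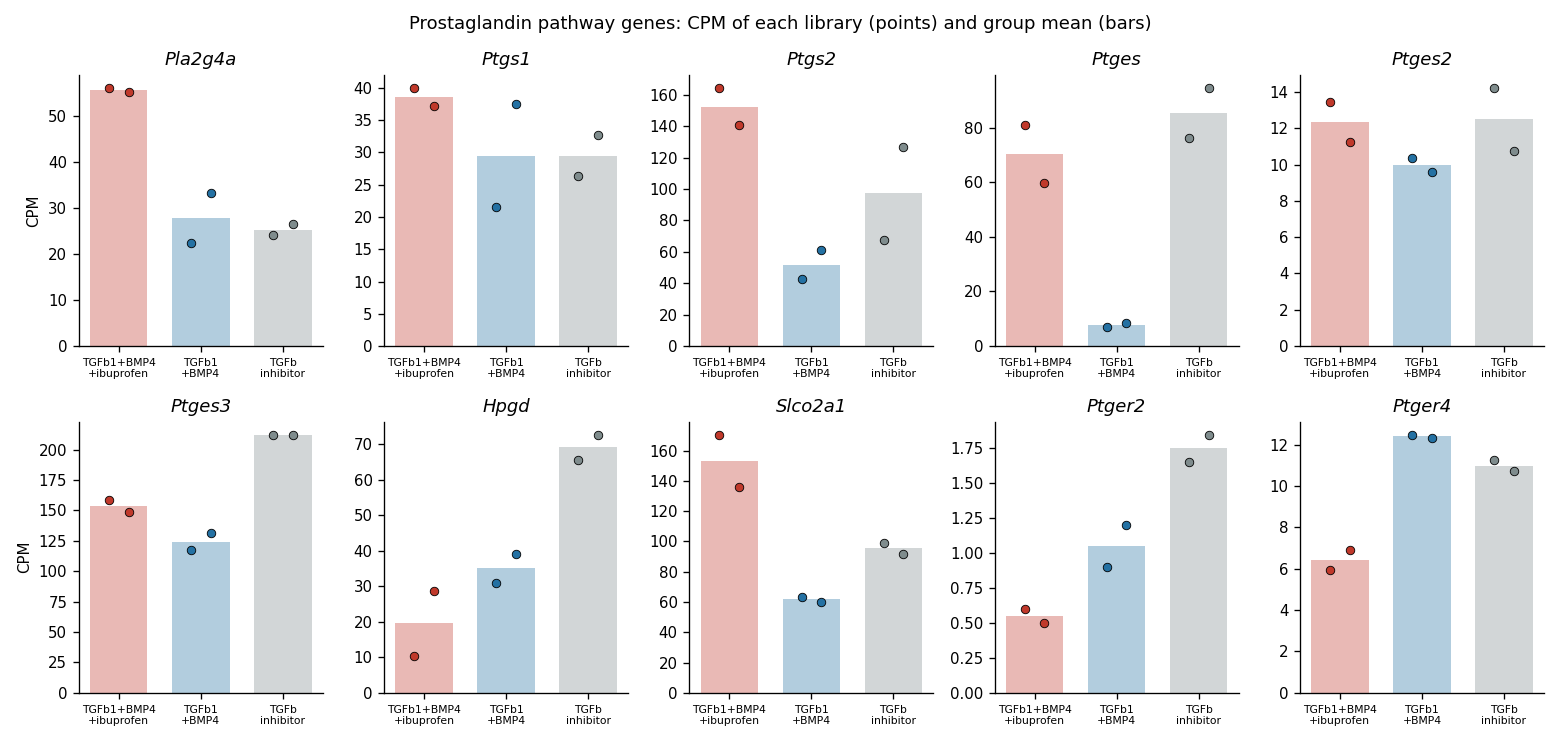
Level of each of the 10 genes in CPM, on its own linear axis from 0, with each point 1 library and each bar the mean of 2 libraries. Ptges had 6.90 and 8.54 CPM with TGFb1+BMP4 and at least 59.7 CPM in each library of the other groups.

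**Figure D2:**
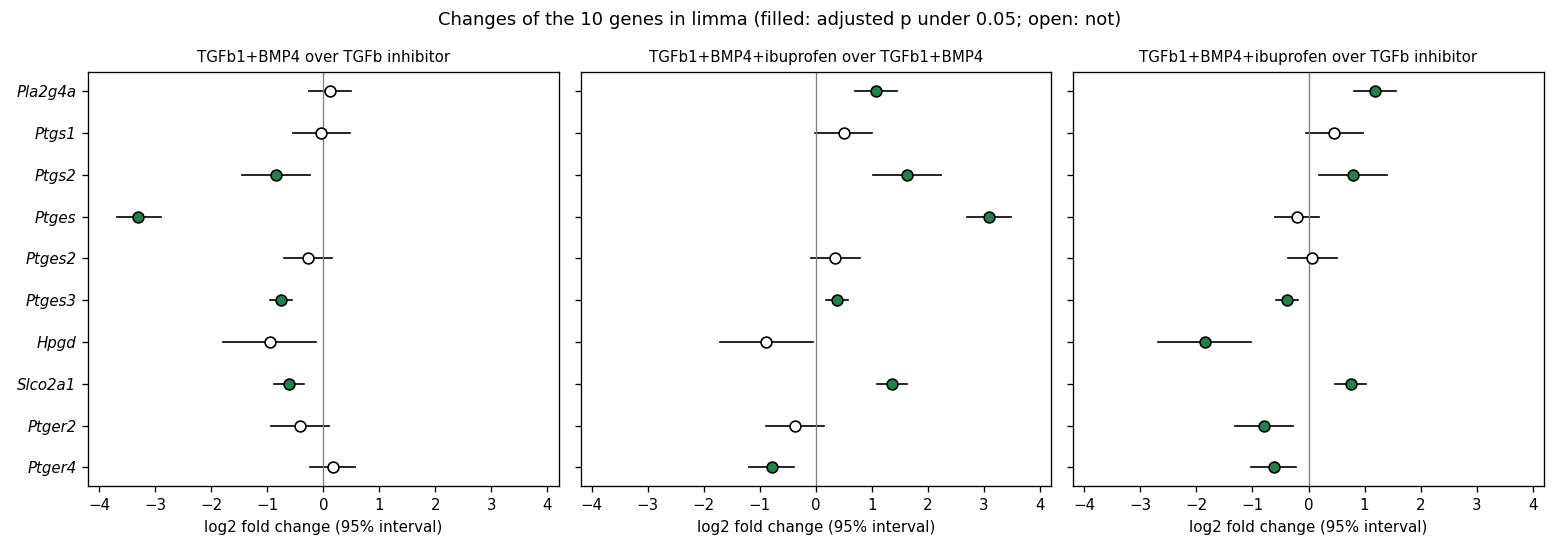
Log2 fold change of each gene with its 95% interval in the 3 comparisons; filled points have a limma adjusted p under 0.05. Ptges stands at -3.30 with TGFb1+BMP4 over the inhibitor and at 3.09 with ibuprofen added to the ligands.

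Release of arachidonic acid is the first step. Pla2g4a, on chromosome 1 from 149829618 to 149961290, had 56.2 and 55.3 CPM with TGFb1+BMP4+ibuprofen, 22.4 and 33.3 CPM with TGFb1+BMP4, and 24.1 and 26.5 CPM with the inhibitor. Both ibuprofen libraries were above all 4 others, and the ligand and inhibitor libraries overlapped. Pla2g4a rose by 1.07 (SE 0.16, limma adjusted p = 0.00298) when ibuprofen was added to the ligands and was higher by 1.19 (SE 0.16, adjusted p = 0.000692) than with the inhibitor. With the ligands alone the change was 0.12 (95% interval -0.26 to 0.49, adjusted p = 0.613), and it was -0.13 without TGFb1+BMP4 replicate 2. Both calls of Pla2g4a held in each leave-one-library-out fit.

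The cyclooxygenases moved unequally. Ptgs2, the inducible cyclooxygenase, on chromosome 1 from 150100031 to 150108227, had 164 and 140 CPM with TGFb1+BMP4+ibuprofen, 42.6 and 60.8 CPM with TGFb1+BMP4, and 67.3 and 127 CPM with the inhibitor. No groups overlapped, the ibuprofen libraries being highest and the ligand libraries lowest, but the inhibitor libraries lay far apart. Ptgs2 rose by 1.63 (SE 0.27, limma adjusted p = 0.00402) when ibuprofen was added to the ligands. The lower level with TGFb1+BMP4 than with the inhibitor, -0.84 (SE 0.27, adjusted p = 0.0352), rests on single libraries. It was not called without TGFb inhibitor replicate 2 (-0.37, adjusted p = 0.203), without TGFb1+BMP4 replicate 1 (-0.62, adjusted p = 0.159), or without either ibuprofen library, which enter through the shared spread (-0.84, adjusted p = 0.0522 without replicate 1 and 0.0507 without replicate 2). The higher level with TGFb1+BMP4+ibuprofen than with the inhibitor, 0.79 (SE 0.27, adjusted p = 0.0442), was likewise not called without replicate 1 of the inhibitor (0.32, adjusted p = 0.28) or without replicate 1 (0.68, adjusted p = 0.184) or 2 (0.90, adjusted p = 0.0924) of the ibuprofen group. Neither call against the inhibitor held without the filter on low values (adjusted p = 0.11 and 0.128) or without the mean-variance trend in limma (adjusted p = 0.0949 and 0.111). The long noncoding neighbours Ptgs2os and Ptgs2os2 were at or below 1.20 CPM in every library. Whether reads were counted by strand is not given in the sources used here.

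Ptgs1, the cyclooxygenase with the more constant expression, on chromosome 2 from 36230426 to 36252272, had 40.0 and 37.3 CPM with TGFb1+BMP4+ibuprofen, 21.5 and 37.5 CPM with TGFb1+BMP4, and 26.3 and 32.7 CPM with the inhibitor. The ligand libraries spanned the inhibitor libraries on both sides, and the higher of them lay between the ibuprofen libraries. Its changes were not called: 0.50 with ibuprofen added to the ligands (95% interval -0.01 to 1.00, adjusted p = 0.153), -0.04 with TGFb1+BMP4 over the inhibitor (-0.54 to 0.47, adjusted p = 0.914) and 0.46 between TGFb1+BMP4+ibuprofen and the inhibitor (-0.04 to 0.97, adjusted p = 0.13). Without TGFb1+BMP4 replicate 2 the first of these was called (0.85, adjusted p = 0.0162), and without TGFb1+BMP4 replicate 1 or 2 the last was (0.46 and 0.45, adjusted p = 0.026 and 0.0326). The -0.04 turned to 0.13 without TGFb inhibitor replicate 2 and to 0.33 without TGFb1+BMP4 replicate 1.

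Within a library, the ratio of Ptgs2 to Ptgs1 CPM was 4.11 and 3.77 with TGFb1+BMP4+ibuprofen, 1.98 and 1.62 with TGFb1+BMP4, and 2.56 and 3.88 with the inhibitor. The ratio was lowest in both ligand libraries, and the ibuprofen and inhibitor libraries overlapped. Per kilobase of the principal transcript, Ptgs2 was above Ptgs1 in each of the 6 libraries, by a ratio of 1.04 in TGFb1+BMP4 replicate 2 up to 2.64 in TGFb1+BMP4+ibuprofen replicate 1.

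The largest changes among the 10 genes with TGFb1+BMP4 over the inhibitor and with ibuprofen added were those of Ptges, the inducible microsomal prostaglandin E synthase, on the minus strand of chromosome 2 from 30889471 to 30929863. It had 81.0 and 59.7 CPM with TGFb1+BMP4+ibuprofen, 6.90 and 8.54 CPM with TGFb1+BMP4, and 76.1 and 94.6 CPM with the inhibitor. The ligand libraries lay far below all 4 others, while the ibuprofen and inhibitor libraries overlapped. Reads behind these values numbered 944 with TGFb1+BMP4+ibuprofen, 107 with TGFb1+BMP4 and 1288 with the inhibitor. Ptges fell by 3.30 (SE 0.17, limma adjusted p = 4.93e-06) with TGFb1+BMP4 over the inhibitor and rose by 3.09 (SE 0.17, adjusted p = 3.38e-05), a rise of 8.53-fold, when ibuprofen was added to the ligands. Between TGFb1+BMP4+ibuprofen and the inhibitor the difference was -0.20 with a 95% interval of -0.60 to 0.19 (adjusted p = 0.388), and 0.01 without TGFb1+BMP4+ibuprofen replicate 2. In the authors' deposited table the log2 change of Ptges over the inhibitor group is -0.21 with ligands and ibuprofen and -3.45 with the ligands.

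Ptges3, the cytosolic prostaglandin E synthase that is also a co-chaperone of Hsp90, on chromosome 10 from 128058954 to 128077272, had 159 and 148 CPM with TGFb1+BMP4+ibuprofen, 117 and 131 CPM with TGFb1+BMP4, and 212 and 212 CPM with the inhibitor. The groups did not overlap, and the ibuprofen libraries lay between the others. It fell by 0.76 (SE 0.09, limma adjusted p = 0.000239) with the ligands over the inhibitor, rose by 0.38 (SE 0.09, adjusted p = 0.0176) when ibuprofen was added, and was lower with TGFb1+BMP4+ibuprofen than with the inhibitor (-0.38, SE 0.09, adjusted p = 0.00794). The rise was not called without TGFb1+BMP4 replicate 1 (0.32, adjusted p = 0.0778) or TGFb1+BMP4+ibuprofen replicate 1 (0.34, adjusted p = 0.0958), and the difference from the inhibitor not without TGFb inhibitor replicate 2 (-0.38, adjusted p = 0.054). Neither was called without the mean-variance trend in limma (adjusted p = 0.0927 and 0.0519). A processed copy of the gene, Ptges3-ps, has its own row at 8.35 to 18.5 CPM, so how reads were split between the copies is uncertain.

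Ptges2, the membrane-associated synthase, on chromosome 2 from 32395896 to 32405772, had 13.4 and 11.2 CPM with TGFb1+BMP4+ibuprofen, 10.3 and 9.60 CPM with TGFb1+BMP4, and 14.2 and 10.7 CPM with the inhibitor. The ligand libraries were lowest by a small margin, and the others overlapped. No change was called, and the intervals were -0.09 to 0.78 with ibuprofen added to the ligands, -0.71 to 0.16 with the ligands over the inhibitor and -0.37 to 0.50 between TGFb1+BMP4+ibuprofen and the inhibitor. In the last comparison its value of 0.07 changed sign without scaling factors (-0.01), without TGFb inhibitor replicate 2 (-0.12) and without TGFb1+BMP4+ibuprofen replicate 1 (-0.05).

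Of the summed level of the 3 synthases per kilobase of principal transcript, Ptges made up 21.3% and 17.6% with TGFb1+BMP4+ibuprofen, 3.02% and 3.35% with TGFb1+BMP4, and 16.1% and 19.3% with the inhibitor. Ptges3 made up 76.1% and 79.9% with TGFb1+BMP4+ibuprofen, 93.7% and 93.9% with TGFb1+BMP4, and 81.7% and 79.1% with the inhibitor. On this scale Ptges3 was above the other synthases in every library, and the share of Ptges was lowest in both ligand libraries.

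Hpgd, the dehydrogenase that starts prostaglandin breakdown, on chromosome 8 from 56294585 to 56321043, had 10.4 and 28.7 CPM with TGFb1+BMP4+ibuprofen, 31.0 and 39.0 CPM with TGFb1+BMP4, and 65.6 and 72.7 CPM with the inhibitor. The groups did not overlap, with the inhibitor libraries highest, but the ibuprofen libraries differed widely from each other. Hpgd was lower with TGFb1+BMP4+ibuprofen than with the inhibitor (-1.85, SE 0.36, limma adjusted p = 0.00403), and this call held in each leave-one-library-out fit. With the ligands over the inhibitor its change was -0.96 (95% interval -1.79 to -0.13, adjusted p = 0.0648) and with ibuprofen added to the ligands -0.89 (-1.72 to -0.06, adjusted p = 0.124), neither of them called. The wide spread of the ibuprofen libraries enters both tests. Without TGFb1+BMP4+ibuprofen replicate 1 or 2 the change with the ligands was called (-0.96 each, adjusted p = 0.00135 and 0.00149), and without replicate 2 so was the change with ibuprofen (-1.59, adjusted p = 0.00152).

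The ratio of Ptges to Hpgd CPM within a library was 7.79 and 2.08 with TGFb1+BMP4+ibuprofen, 0.223 and 0.219 with TGFb1+BMP4, and 1.16 and 1.30 with the inhibitor. The groups did not overlap, the ratio being lowest in the ligand libraries and highest in the ibuprofen libraries, which differed widely. Per kilobase of principal transcript the ratio was 3.60 and 0.961 with TGFb1+BMP4+ibuprofen, 0.103 and 0.101 with TGFb1+BMP4, and 0.535 and 0.601 with the inhibitor.

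**Figure D3:**
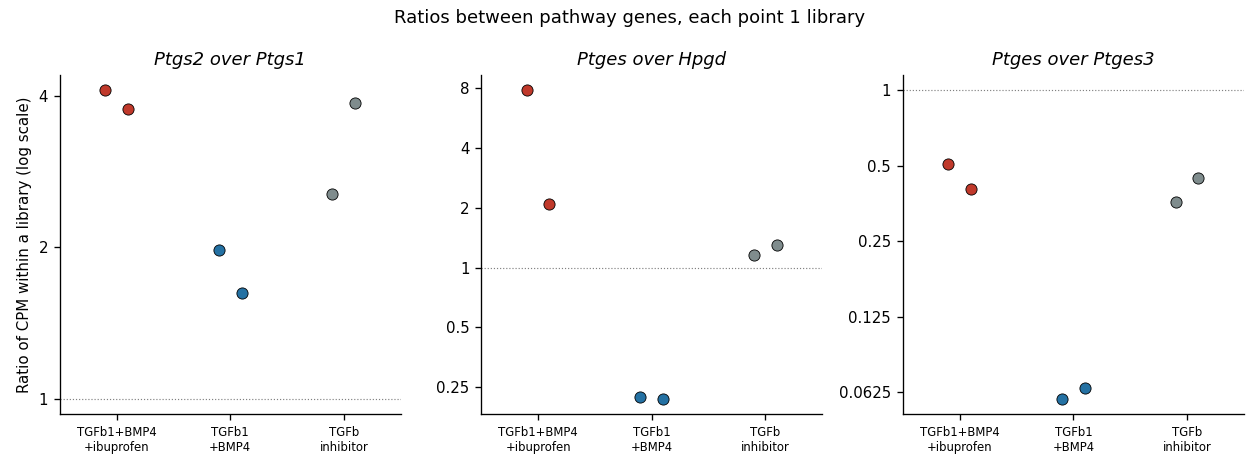
Ratio of CPM between pairs of pathway genes within each library, on log axes; points are libraries and the dotted line marks a ratio of 1. Ptges over Hpgd is 0.223 and 0.219 in the TGFb1+BMP4 libraries and at least 1.16 in the other 4.

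Slco2a1, the prostaglandin transporter, on chromosome 9 from 102988712 to 103096002, had 171 and 136 CPM with TGFb1+BMP4+ibuprofen, 63.5 and 60.3 CPM with TGFb1+BMP4, and 99.2 and 91.8 CPM with the inhibitor. The groups did not overlap, the ibuprofen libraries being highest and the ligand libraries lowest. Slco2a1 rose by 1.36 (SE 0.12, limma adjusted p = 0.000245) when ibuprofen was added to the ligands, fell by 0.61 (SE 0.12, adjusted p = 0.004) with the ligands over the inhibitor, and was higher by 0.75 (SE 0.12, adjusted p = 0.0014) with TGFb1+BMP4+ibuprofen than with the inhibitor. All 3 calls held in each leave-one-library-out fit.

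Both receptor genes had their lowest values in the TGFb1+BMP4+ibuprofen libraries. Ptger4, the EP4 receptor, on the minus strand of chromosome 15 from 5206661 to 5244187, had 5.95 and 6.90 CPM with TGFb1+BMP4+ibuprofen, 12.5 and 12.3 CPM with TGFb1+BMP4, and 11.2 and 10.7 CPM with the inhibitor. Both ibuprofen libraries were below all 4 others. Ptger4 fell by 0.79 (SE 0.17, limma adjusted p = 0.0148) when ibuprofen was added to the ligands and was lower with TGFb1+BMP4+ibuprofen than with the inhibitor (-0.62, SE 0.17, adjusted p = 0.0205), while the ligands over the inhibitor gave 0.17 (95% interval -0.23 to 0.57, adjusted p = 0.475). The fall was not called without TGFb1+BMP4 replicate 1 (-0.76, adjusted p = 0.0636) or TGFb1+BMP4+ibuprofen replicate 1 (-0.70, adjusted p = 0.0818). The difference from the inhibitor was not called without TGFb inhibitor replicate 1 (-0.61, adjusted p = 0.0977) or 2 (-0.65, adjusted p = 0.0788), or without TGFb1+BMP4+ibuprofen replicate 1 (-0.53, adjusted p = 0.0918). A pseudogene on the opposite strand, Gm15937, covers 15.3% of its exon bases, so its level is uncertain to that extent.

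Ptger2, the EP2 receptor, on chromosome 14 from 44988195 to 45003820, had 0.60 and 0.50 CPM with TGFb1+BMP4+ibuprofen, 0.90 and 1.20 CPM with TGFb1+BMP4, and 1.65 and 1.85 CPM with the inhibitor. The groups did not overlap, but the values rest on only 7 reads with TGFb1+BMP4+ibuprofen, 14 with TGFb1+BMP4 and 26 with the inhibitor. Its fitted difference between TGFb1+BMP4+ibuprofen and the inhibitor, -0.79 (SE 0.23, limma adjusted p = 0.024), was not called when any 1 of those 4 libraries was left out (-0.73 to -0.85, adjusted p = 0.0648 to 0.127). Adding 1 to the CPM before taking logs compresses the change of a gene this low; in the authors' deposited table its log2 change in the same comparison is -1.55. Changes of -0.37 with ibuprofen added to the ligands and -0.42 with the ligands over the inhibitor were not called.

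Levels per kilobase of principal transcript put the genes in order. Ptges3 was highest and Ptger2 lowest of the 10 in each group, at 76.9 ± 3.70 and 0.149 ± 0.0192 CPM per kilobase with TGFb1+BMP4+ibuprofen, 62.2 ± 4.95 and 0.285 ± 0.0574 with TGFb1+BMP4, and 106 ± 0.191 and 0.475 ± 0.0384 with the inhibitor (SD, n = 2 each). With TGFb1+BMP4+ibuprofen Ptgs2 came next after Ptges3 at 34.2 ± 3.81, and Slco2a1 (21.5 ± 3.44), Pla2g4a (19.5 ± 0.213) and Ptges (19.3 ± 4.13) followed without differing beyond their spread. With TGFb1+BMP4 and with the inhibitor Hpgd came next after Ptges3, at 20.8 ± 3.36 and 41.1 ± 2.98. Ptges ranked 8 of 10 with TGFb1+BMP4 at 2.12 ± 0.320, beside Ptges2 at 2.00 ± 0.106, and 3 of 10 with the inhibitor at 23.4 ± 3.60, where it did not differ beyond the spread from Ptgs2 at 21.8 ± 9.47. The order of the middle genes depends on the length used. Per kilobase of all exon bases, Ptges had 17.9 ± 3.83 with TGFb1+BMP4+ibuprofen, above Slco2a1 (11.3 ± 1.81) and Pla2g4a (8.72 ± 0.0952).

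Other genes of the pathway were read from lists of their own. Of 14 tested genes of arachidonate release, activation and reacylation, 4 rose and 6 fell with TGFb1+BMP4 over the inhibitor (median change -0.48), 5 rose and 2 fell when ibuprofen was added (median 0.11), and 6 were higher and 6 lower between TGFb1+BMP4+ibuprofen and the inhibitor (median -0.02). Pla2g4b, Pla2g4d and Pla2g4e, further genes of the cytosolic phospholipase A2 family, were among those that fell with the ligands. Pla2g3, counted as lower in both comparisons with the inhibitor, passed the filter only through the inhibitor group, where it had 2.5 and 3.25 CPM. Its calls add no support to those counts. The counts stand against all genes tested, of which 40.3% were called with TGFb1+BMP4 over the inhibitor, 19.8% with ibuprofen added and 40.7% between TGFb1+BMP4+ibuprofen and the inhibitor, with median changes of 0.00, -0.01 and -0.02. Pla2g4e had 99.7 and 142 CPM with TGFb1+BMP4+ibuprofen, 20.9 and 45.02 CPM with TGFb1+BMP4, and 367 and 390 CPM with the inhibitor. It fell by 3.57 (SE 0.29, limma adjusted p = 4.12e-05) with the ligands and rose by 1.99 (SE 0.29, adjusted p = 0.00238) when ibuprofen was added, to a level still below that of the inhibitor libraries. The span of Pla2g4b overlaps that of Gm28042 on the same strand, so the reads of Pla2g4b are uncertain. Pla2g4b fell by 3.83 with the ligands, and its change when ibuprofen was added was not called (-0.42, limma adjusted p = 0.194). Pla2g4d averaged 7.77 ± 6.04 CPM with TGFb1+BMP4+ibuprofen, 27.5 ± 14.2 CPM with TGFb1+BMP4, and 150 ± 7.66 CPM with the inhibitor (SD, n = 2 each). It fell by 2.49 (SE 0.46, adjusted p = 0.00318) with the ligands and fell again, by 1.74 (SE 0.46, adjusted p = 0.0324), when ibuprofen was added. The second fall was not called without TGFb1+BMP4 replicate 2 (-1.24, adjusted p = 0.142), without TGFb1+BMP4+ibuprofen replicate 1 (-0.96, adjusted p = 0.142), or without TGFb inhibitor replicate 1 (-1.75, adjusted p = 0.0512). It was also lost in limma without the filter (adjusted p = 0.115), without the mean-variance trend (adjusted p = 0.0966) and in the fit of only the groups compared (adjusted p = 0.0567).

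Genes that release or handle arachidonate by other routes did not all follow. Mgll, which frees arachidonate from an endocannabinoid through monoacylglycerol hydrolysis, had 3.80 and 7.50 CPM with TGFb1+BMP4+ibuprofen, 17.3 and 31.7 CPM with TGFb1+BMP4, and 2.35 and 2.20 CPM with the inhibitor. It rose by 2.90 (SE 0.33, limma adjusted p = 0.000259) with the ligands and fell by 1.88 (SE 0.33, adjusted p = 0.00597) when ibuprofen was added, the opposite signs to Ptges. Faah, a fatty acid amide hydrolase, had 16.0 and 15.6 CPM with TGFb1+BMP4+ibuprofen, 3.30 and 6.25 CPM with TGFb1+BMP4, and no read with the inhibitor. Set against 3 reads over the inhibitor group it was at least 79.3-fold higher with TGFb1+BMP4+ibuprofen and at least 23.8-fold higher with TGFb1+BMP4. Lpcat3, which puts arachidonate back into membrane lipids, rose by 1.17 (SE 0.11, adjusted p = 0.000348) and Acsl4, which activates it, by 0.94 (SE 0.11, adjusted p = 0.00102) when ibuprofen was added. Lpcat3 overlaps Emg1 on the opposite strand, so its reads are uncertain to that extent.

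Of 10 tested genes of other prostanoid synthases and prostaglandin reductases, 2 rose and 5 fell with the ligands over the inhibitor (median -0.46), 3 rose and 1 fell when ibuprofen was added (median 0.16), and 2 were higher and 2 lower between TGFb1+BMP4+ibuprofen and the inhibitor (median 0.29), against the same 40.3%, 19.8% and 40.7% of all genes called. Hpgds, a prostaglandin D synthase, had 15.0 and 11.8 CPM with TGFb1+BMP4+ibuprofen, 3.60 and 4.50 CPM with TGFb1+BMP4, and 9.59 and 9.44 CPM with the inhibitor. It fell by 1.06 (SE 0.20, limma adjusted p = 0.00327) with the ligands and rose by 1.58 (SE 0.20, adjusted p = 0.00115) when ibuprofen was added. Ptgis, prostacyclin synthase, moved the other way, with 4.50 and 4.10 CPM with TGFb1+BMP4+ibuprofen, 10.6 and 13.6 CPM with TGFb1+BMP4, and 1.10 and 1.30 CPM with the inhibitor. It rose by 2.57 (SE 0.22, adjusted p = 5.31e-05) with the ligands and fell by 1.24 (SE 0.22, adjusted p = 0.00575) when ibuprofen was added. Zadh2, a prostaglandin reductase, fell by 1.12 (SE 0.12, adjusted p = 0.000155) with the ligands and rose by 0.89 (SE 0.12, adjusted p = 0.00144) when ibuprofen was added.

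Of 7 tested genes of other prostanoid receptors and transporters, 2 rose and 3 fell with the ligands over the inhibitor (median -0.46), 2 rose and 1 fell when ibuprofen was added (median 0.11), and 1 was higher and 3 lower between TGFb1+BMP4+ibuprofen and the inhibitor (median 0.07), again against 40.3%, 19.8% and 40.7% of all genes. Ptger3, counted as lower in both comparisons with the inhibitor, passed the filter only through the inhibitor group, where it had 1.55 and 1.85 CPM. Its calls add no support to those counts. Abcc4, an efflux pump that exports prostaglandin E2, had 45.1 and 37.6 CPM with TGFb1+BMP4+ibuprofen, 16.1 and 15.2 CPM with TGFb1+BMP4, and 105 and 74.8 CPM with the inhibitor. The groups did not overlap, and the ibuprofen libraries lay between the others. Abcc4 fell by 2.42 (SE 0.17, limma adjusted p = 1.83e-05) with the ligands and rose by 1.41 (SE 0.17, adjusted p = 0.000893) when ibuprofen was added, and both calls held in each leave-one-library-out fit. The exporter and the uptake transporter Slco2a1 thus both fell with the ligands and both rose with ibuprofen added, but against the inhibitor Abcc4 remained lower with TGFb1+BMP4+ibuprofen (-1.01, adjusted p = 0.00167) while Slco2a1 was higher. Of the further transporters listed, Slco4a1 had called changes of the same signs (-1.19 with the ligands, 0.67 with ibuprofen added). Slco3a1 had the opposite signs (1.65, limma adjusted p = 0.002, and -1.2, adjusted p = 0.0187). No fall of this list was called with ibuprofen added when no filter was used. Ptgds, Ptgdr, Ptgfr and Tbxa2r, genes of prostaglandin D synthesis and of the D, F and thromboxane receptors, did not pass the filter and reached at most 0.80, 0.15, 0.35 and 0.15 CPM.

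**Figure D4:**
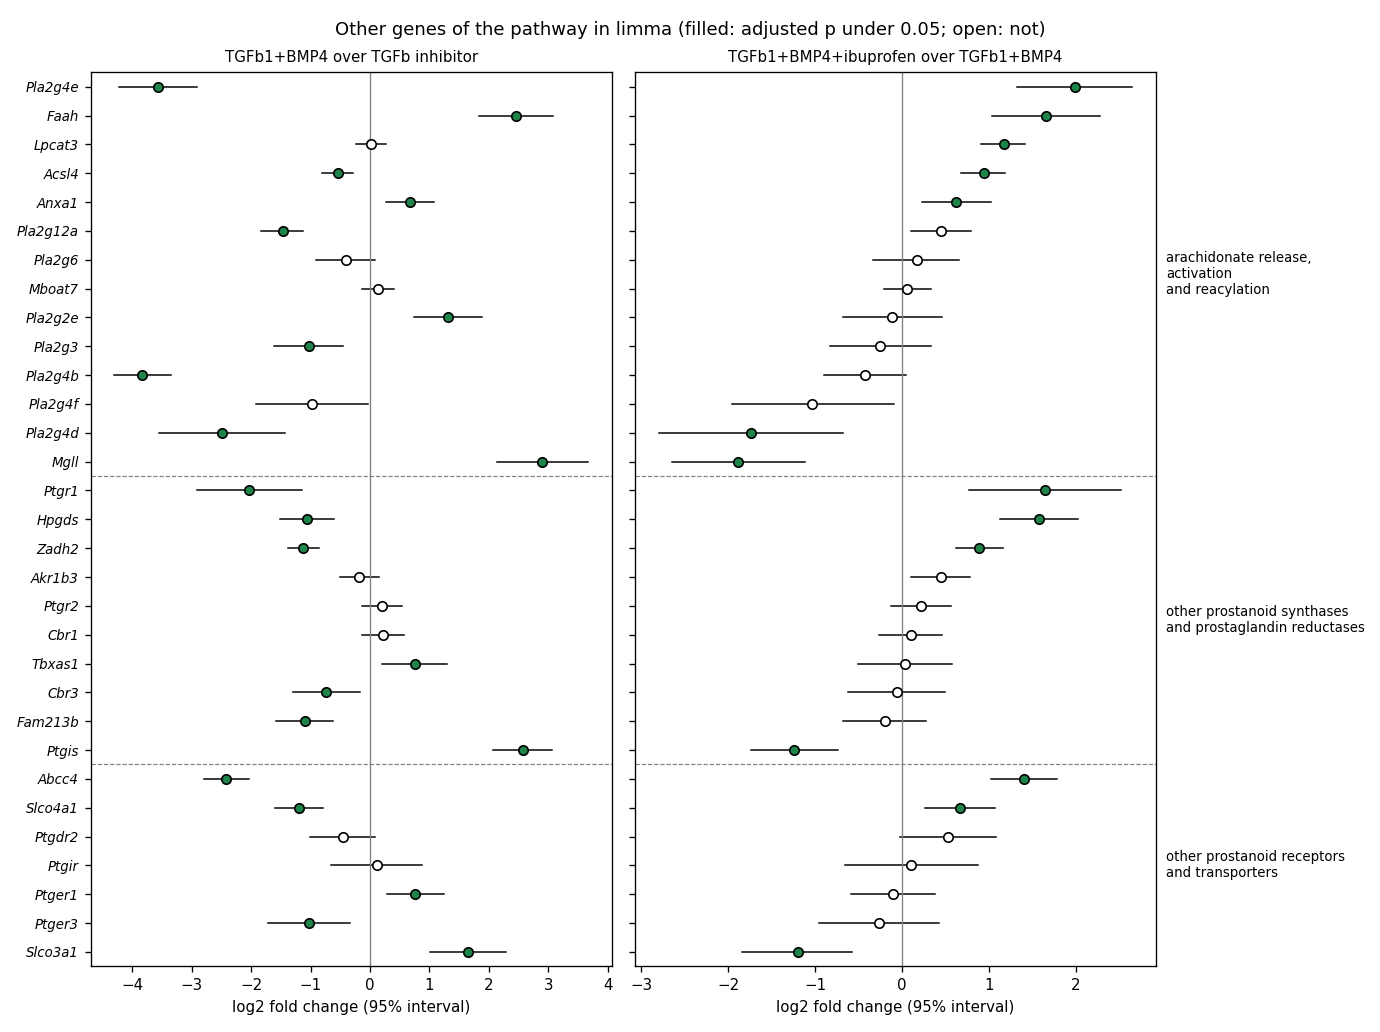
Log2 fold change with 95% interval of the tested genes in the 3 further lists of the pathway, with TGFb1+BMP4 over the inhibitor on the left and with ibuprofen added on the right; filled points have a limma adjusted p under 0.05. Pla2g4e and Abcc4 fell on the left and rose on the right, and Mgll and Ptgis did the reverse; the left-hand value of Faah is fitted against libraries with no read.

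The genes with the nearest profile to Ptges, Hpgd and Ptgs2, the 3 genes whose group means spanned most (3.30, 1.85 and 1.63 on the log2 scale), were taken from 10660 other tested genes with a mean of at least 5 CPM. Likeness was the Euclidean distance between centred log2 profiles over the 6 libraries, a description without a test. Nearest to Ptges were Lipg (distance 0.40), Reep6 (0.60), Alpl (0.74), Slc7a3 (0.96) and Grik3 (1.00). Lipg, endothelial lipase, had 28.5 and 25.6 CPM with TGFb1+BMP4+ibuprofen, 2.45 and 2.80 CPM with TGFb1+BMP4, and 27.0 and 29.4 CPM with the inhibitor, a dip in the ligand libraries like that of Ptges. Nearest to Hpgd were Pla2g4f (0.31), Lce3b (0.36), Gramd1c (0.37), Ovol1 (0.48) and Pdlim2 (0.48). Pla2g4f, a further cytosolic phospholipase A2, had 4.05 and 13.9 CPM with TGFb1+BMP4+ibuprofen, 16.5 and 18.5 CPM with TGFb1+BMP4, and 37.4 and 33.9 CPM with the inhibitor, and so shows the wide gap between the ibuprofen libraries that Hpgd shows. Nearest to Ptgs2 were Dhcr7 (0.58), Mt2 (0.60), Acot7 (0.64), Vegfa (0.67) and Fgfbp1 (0.68), all highest with TGFb1+BMP4+ibuprofen and lowest with TGFb1+BMP4.

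**Figure D5:**
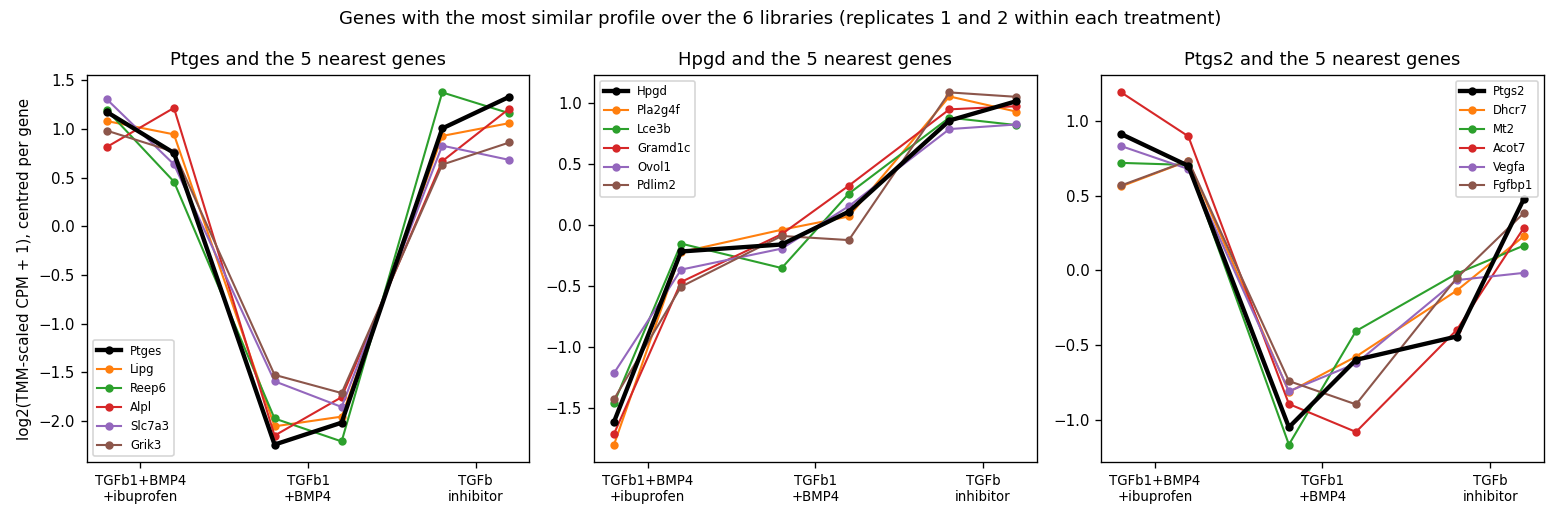
Profiles of Ptges, Hpgd and Ptgs2 (black) and of the 5 genes nearest to each (coloured) over the 6 libraries, as log2 of scaled CPM plus 1 centred on each gene's mean. The genes beside Ptges dip in both TGFb1+BMP4 libraries, those beside Hpgd are lowest in TGFb1+BMP4+ibuprofen replicate 1, and those beside Ptgs2 are highest in both ibuprofen libraries.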

How the data were processed

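The libraries were made from organoid RNA with the Ovation Solo kit, per the labels' protocols. Per the submitters' processing notes, STAR 2.5.3a, HTSeq, Cell Ranger 3.1.0 and edgeR were used, with no role given for each, and the builds named are GRCm38 and mm10. The authors deposited 1 table of 52636 genes. Its signal columns were scaled by the authors to a near-equal total and rounded up, and the deposited CPM equal that signal over its column total. Log2 fold changes against the inhibitor group are deposited too. A deposited p-value and its adjusted form name no comparison and were not used. The deposited signal is not a raw count, so the count models planned for raw counts were not run. Its regular steps gave the reads behind each value, used for depths and floors, and these reads reproduced 99.882% to 99.935% of a library's values exactly and the rest to within 1 unit.

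Samples were grouped by labelled treatment. Genes with at least 1 CPM in at least 2 of 6 libraries were kept (18241). CPM were divided by trimmed-mean factors (trims of 30% and 5%), and log2 was taken after adding 1. Group terms were fitted over the 6 libraries in limma 3.58.1 under R 4.3.3, with a mean-variance trend and without the replicate number, with 3 residual degrees of freedom. Tests were 2-sided and adjusted by Benjamini-Hochberg over all genes tested, at 0.05. The fit was tested on simulated data. A change is given with its moderated standard error (SE) or 95% interval, a mean with the SD of n = 2 libraries. A group without reads was set to 3 reads over the group, which covers counting error only. Identifiers of 52403 genes were found in GENCODE vM21 (GRCm38), the source of gene positions and lengths; promoters are from RefSeq on GRCm38.p6, matched for 10 of 10 genes by symbol. The alternatives were other pseudocounts, filters and scaling factors, no trend, fits of only the groups compared, a replicate block, each library left out in turn, and voom on the recovered reads, which was chosen after seeing the data.

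The 10 genes and the lists were chosen with earlier results of these data known. The text names the 10 genes in each comparison, from each list genes among those with the smallest adjusted p or a mean of at least 5 CPM in a group, and the 5 genes nearest in profile to the 3 genes with the widest span. Genes of low level under the filter are named as such. Some list genes are named only because they passed the filter through a single group.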

Additional observations from a re-analysis of the deposited data

How the results depend on the processing

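Of the changes of the 10 genes, 281 values under other settings and 149 with a library left out kept their direction and side of the threshold, 9 and 19 lost the call, 5 and 6 gained it, and 1 and 6 changed sign, none of the last from a called change. The changes of sign were those of Ptges2 between TGFb1+BMP4+ibuprofen and the inhibitor (-0.01 without scaling factors, -0.12 and -0.05 without TGFb inhibitor replicate 2 and TGFb1+BMP4+ibuprofen replicate 1), Ptges there (0.01), Ptgs1 with the ligands (0.13 and 0.33) and Pla2g4a with the ligands (-0.13), and the cause was not tested. Their ranges with a library left out were -0.12 to 0.23, -0.41 to 0.01, -0.39 to 0.33 and -0.13 to 0.37. With a library left out, 3 to 4 of the 10 genes were called with the ligands over the inhibitor, 4 to 7 with ibuprofen added and 4 to 8 between TGFb1+BMP4+ibuprofen and the inhibitor, and of all genes 4713 to 7324, 1643 to 2880 and 4678 to 7543, against 7351, 3603 and 7419 with 6 libraries. With ibuprofen added, 2354 genes were called without a filter and 2297 without the trend. Called genes of the receptor and transporter list numbered 3 to 5, 1 to 2 and 1 to 4 with a library left out, of the synthase and reductase list 2 to 4 between TGFb1+BMP4+ibuprofen and the inhibitor, and, with ibuprofen added, 4 to 7 of the cyclic AMP list and 1 to 3 of the list of Ptgs2 and Ptges regulators. Without a filter, the receptor and transporter list had 1 call with ibuprofen added and 2 between TGFb1+BMP4+ibuprofen and the inhibitor, the synthase list 2 there and the cyclic AMP list 4 with ibuprofen added; without the trend the regulator list had 1 in that step. Calls of Ptgs2 were also lost with the ligands in the fit of only the groups compared (adjusted p = 0.0561), and between TGFb1+BMP4+ibuprofen and the inhibitor at a filter of 5 CPM (0.0514) and without scaling factors (0.0662). Calls were gained by Hpgd with the ligands in the fit of only the groups compared (0.00143) and with voom (0.0233), and by Ptgs1 between TGFb1+BMP4+ibuprofen and the inhibitor in the fit of only those groups (0.0258).

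Equal replicate numbers are not said to pair libraries, and deviations of same-numbered libraries correlated at 0.19, 0.258 and 0.174, with 2 pairs per comparison. With the replicate number as a block, 7964, 4341 and 8015 genes and 5, 7 and 7 of the 10 genes were called; Hpgd gained calls with the ligands (-0.96, adjusted p = 0.013) and with ibuprofen added (-0.89, adjusted p = 0.0316), and the regulator list had 5 calls in that step. Planned edgeR and DESeq2 count models were not run, since the deposited values are not raw counts. Depth limits Ptger2, with 7 to 26 reads a group.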

Other observations

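Genes known to respond to cyclic AMP, the messenger raised by the EP2 and EP4 receptors, were called in both directions in each comparison. Of 20 tested, 3 rose and 5 fell with TGFb1+BMP4 over the inhibitor, 5 rose and 2 fell when ibuprofen was added, and 8 were higher and 2 lower between TGFb1+BMP4+ibuprofen and the inhibitor, with medians of 0.00, 0.07 and 0.07 against 0.00, -0.01 and -0.02 over all genes tested. Of all genes 40.3%, 19.8% and 40.7% were called in these comparisons, so the count with the ligands is near that of all genes, and nothing particular to the list was tested. Gem, counted as higher between TGFb1+BMP4+ibuprofen and the inhibitor, passed the filter on low values only through the ibuprofen group. It had 1.6 and 2.5 CPM there, so its call adds no support to the count in that comparison. Irs2, the insulin receptor substrate, had 174 and 129 CPM with TGFb1+BMP4+ibuprofen, 62.6 and 49.97 CPM with TGFb1+BMP4, and 87.7 and 78.5 CPM with the inhibitor, and rose by 1.48 (SE 0.16, limma adjusted p = 0.000658) when ibuprofen was added. The immediate early gene Fos had 77.6 and 80.6 CPM with TGFb1+BMP4+ibuprofen, 32.2 and 28.7 CPM with TGFb1+BMP4, and 50.1 and 58.5 CPM with the inhibitor, and rose by 1.42 (SE 0.12, adjusted p = 0.00023) in that step. Sik1, a salt-inducible kinase, was higher by 1.10 (SE 0.10, adjusted p = 8.32e-05) with the ligands than with the inhibitor, and its change with ibuprofen added was 0.03 (adjusted p = 0.864).

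Among 15 tested genes known to induce or regulate Ptgs2 and Ptges, 2 rose and 7 fell with TGFb1+BMP4 over the inhibitor, 3 rose and 0 fell when ibuprofen was added, and 0 were higher and 4 lower between TGFb1+BMP4+ibuprofen and the inhibitor, with medians of -0.27, 0.08 and -0.20 against 0.00, -0.01 and -0.02 over all genes. With 40.3%, 19.8% and 40.7% of all genes called in these comparisons, the count with ibuprofen added is near that of all genes. Nfkbia, the NF-kB inhibitor and target, had 191 and 149 CPM with TGFb1+BMP4+ibuprofen, 77.8 and 65.3 CPM with TGFb1+BMP4, and 189 and 236 CPM with the inhibitor, a fall of 1.54 (SE 0.16, limma adjusted p = 0.000139) with the ligands and a rise of 1.30 (SE 0.16, adjusted p = 0.00105) when ibuprofen was added. The zinc finger factor Egr1, known to act on the Ptges promoter, had 48.7 and 75.1 CPM with TGFb1+BMP4+ibuprofen, 89.7 and 89.8 CPM with TGFb1+BMP4, and 214 and 266 CPM with the inhibitor. Egr1 fell by 1.40 (SE 0.19, adjusted p = 0.000654) with the ligands, and its change with ibuprofen added was -0.49 (adjusted p = 0.111). The part of Egr1 in the changes of Ptges was not tested. Il1b did not pass the filter, at 0.70 CPM or less.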
